A study of Arabidopsis with 36 samples.

Results

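Rhodaneses, or sulfurtransferases (STR), were followed through the polysome fractions of Arabidopsis seedlings. The group described here holds 8 loci of the family, listed by locus and chosen by earlier results of these data, in which STR16 was low in wild-type heavy polysomes: STR1 (AT1G79230), STR9 (AT2G42220), STR10 (AT3G08920), STR14 (AT4G27700), STR15 or SEN1 (AT4G35770), STR16 (AT5G66040), STR17 (AT2G17850) and STR18 (AT5G66170). These are 8 of the 33035 loci in the gene table. A further 12 family loci served as comparison. The reference gene table gives symbols for STR1, SEN1, STR16 and STR18; the other 4 are known there by locus only.

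The libraries came from mock-treated seedlings 11 days old, of an AtY34 overexpressor and of wild type (Col-2). From each line, RNA of heavy polysomes, RNA of light polysomes and total RNA were sequenced, with 3 libraries per line and fraction (18 in all). The AtYchF1 overexpressor and the AtYchF1 knockdown mutant of the same series were not analysed here. What AtY34 encodes, which promoter drives it and the number of independent transgenic lines are stated in no source used here. The question behind the series, by its title, is which mRNAs AtYchF1 directs to or from translation.

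A rhodanese carries a sulfur atom as a persulfide on a cysteine of its active site and hands it from a donor, such as thiosulfate or 3-mercaptopyruvate, to an acceptor. Plants have many such proteins, in the cytosol, plastids, mitochondria and nucleus, and they have been linked to cysteine breakdown, thiol modification and the photosynthetic membrane. Polysome profiling separates mRNAs by the number of ribosomes they carry: light polysomes hold few ribosomes per mRNA and heavy polysomes many.

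The deposited values are TPM, a length-scaled share of each library, so genes can be compared in level, but read depth is unknown. Levels below are TPM divided by 1 factor per library (0.736 to 1.39, the median ratio over 9431 nuclear genes present in all libraries) and are called scaled TPM. Differences are log2 fold changes of scaled TPM after adding 1, which understates those of low genes, with standard errors (SE) and Benjamini-Hochberg adjusted p-values from limma over all 20171 nuclear genes tested, at a threshold of 0.05. Replicate libraries of a group correlated across genes with r of 0.803 to 0.874. The labels do not state whether replicate libraries stem from separate cultures, and the p-values therefore reflect library-to-library spread that could be technical. The leaf genes RBCS1A, CAB1 and RCA had group means of 1612 to 9363 scaled TPM, while 3 of 4 root markers stayed between 0.774 and 24.1 and NRT2:1 was at or near 0. AtYchF1 mRNA averaged 210 ± 34.5 scaled TPM in total RNA of the AtY34 line and 42.5 ± 10.3 in wild type (SD, n = 3 each).

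Of the 8 loci, 7 passed the filter on low values (a TPM of 1 or more in 3 or more libraries), each with TPM above 1 in all 18 libraries. STR17 was listed at 0 in every library and had no test. In total RNA the order of levels was SEN1, STR16 and STR9 in both lines, with no overlap between neighbours in that order. SEN1 averaged 644 ± 87.7 scaled TPM in AtY34 total RNA and 821 ± 74.9 in wild-type total RNA. STR16 averaged 378 ± 35.4 and STR9 153 ± 29.95 scaled TPM in AtY34 total RNA, against 478 ± 75.2 and 165 ± 13.1 in wild-type total RNA. The other 4 members lay between 24.1 and 50.05 scaled TPM in AtY34 total RNA and between 29.9 and 49.8 in wild-type total RNA. Among those 4, neighbours in the order overlapped in their libraries in both lines.

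**Figure D1:**
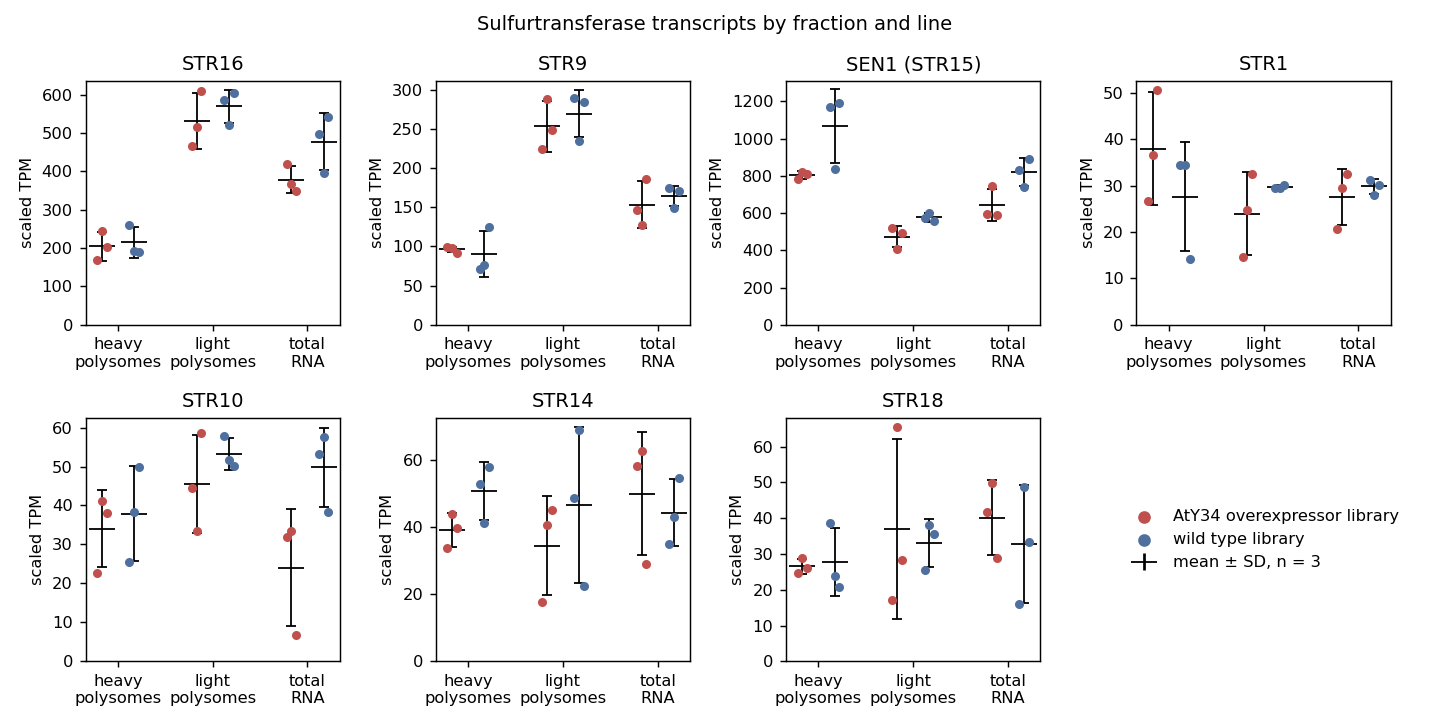
Scaled TPM (linear axes starting at 0) of the 7 members with values above 0, by fraction, with the AtY34 overexpressor left of wild type; points are libraries and bars are mean ± SD, n = 3. STR16 and STR9 were lower in every heavy library than in any light library of the same line, and SEN1 was higher in every heavy library. The libraries of STR1, STR14 and STR18 overlapped between heavy and light fractions. Those of STR10 overlapped in the AtY34 line but narrowly not in wild type, where heavy libraries were lower.

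In the AtY34 line 3 members differed between heavy and light polysomes, with 1 higher in heavy polysomes and 2 lower. In that comparison 139 of 20171 tested genes (0.689%) were called, 0.263% higher and 0.426% lower. The 3 were the abundant ones: STR16 and STR9 fell in heavy relative to light polysomes, and SEN1 rose. The family came to attention through low values of STR16 in wild-type heavy polysomes, so wild-type fraction values of the members are given as description, without a test. Nothing is read from their count there: 3 members, 1 higher and 2 lower, lay past the cutoff between wild-type heavy and light polysomes, as did 0.957% of all tested genes (0.392% higher, 0.565% lower).

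STR16, a single-domain sulfurtransferase, was measured at 168, 244 and 203 scaled TPM in AtY34 heavy polysomes and at 466, 515 and 609 in AtY34 light polysomes. The highest heavy library lay well below the lowest light library. STR16 fell by 1.37 on the log2 scale (SE 0.18, limma adjusted p = 0.00199), a 2.59-fold lower level in heavy polysomes. In wild type STR16 had 261, 192 and 190 scaled TPM in heavy polysomes and 586, 521 and 603 in light polysomes. That is a log2 fold change of -1.42 (SE 0.18), again without overlap.

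STR9, another single-domain member, had 98.9, 97.5 and 91.9 scaled TPM in AtY34 heavy polysomes and 224, 288 and 249 in AtY34 light polysomes. Every heavy library was below every light library. STR9 fell by 1.38 on the log2 scale (SE 0.21, limma adjusted p = 0.00417), a 2.61-fold lower level in heavy polysomes. Wild-type STR9 was at 70.9, 76.3 and 124 scaled TPM in heavy polysomes and 289, 235 and 284 in light polysomes, a log2 fold change of -1.60 (SE 0.21). For STR16 and STR9 the AtY34 calls held in 11 of 12 alternatives and ended when the model used no other libraries than the 6 compared (limma adjusted p = 0.124 for STR16 and 0.0986 for STR9). In that model 0 of all tested genes passed.

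SEN1, named for its induction in senescing leaves and also known as DARK INDUCIBLE 1, went the other way. It had 784, 822 and 809 scaled TPM in AtY34 heavy polysomes, against 520, 408 and 493 in AtY34 light polysomes. The groups did not overlap, and SEN1 rose by 0.77 on the log2 scale (SE 0.16, limma adjusted p = 0.0341), a 1.71-fold higher level in heavy polysomes. Leaving out any of the 6 libraries compared ended this call, with adjusted p from 0.0679 to 0.133 and log2 fold changes from 0.67 to 0.84. In wild type SEN1 had 1173, 838 and 1193 scaled TPM in heavy polysomes and 572, 603 and 558 in light polysomes, a log2 fold change of 0.87 (SE 0.16).

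**Figure D2:**
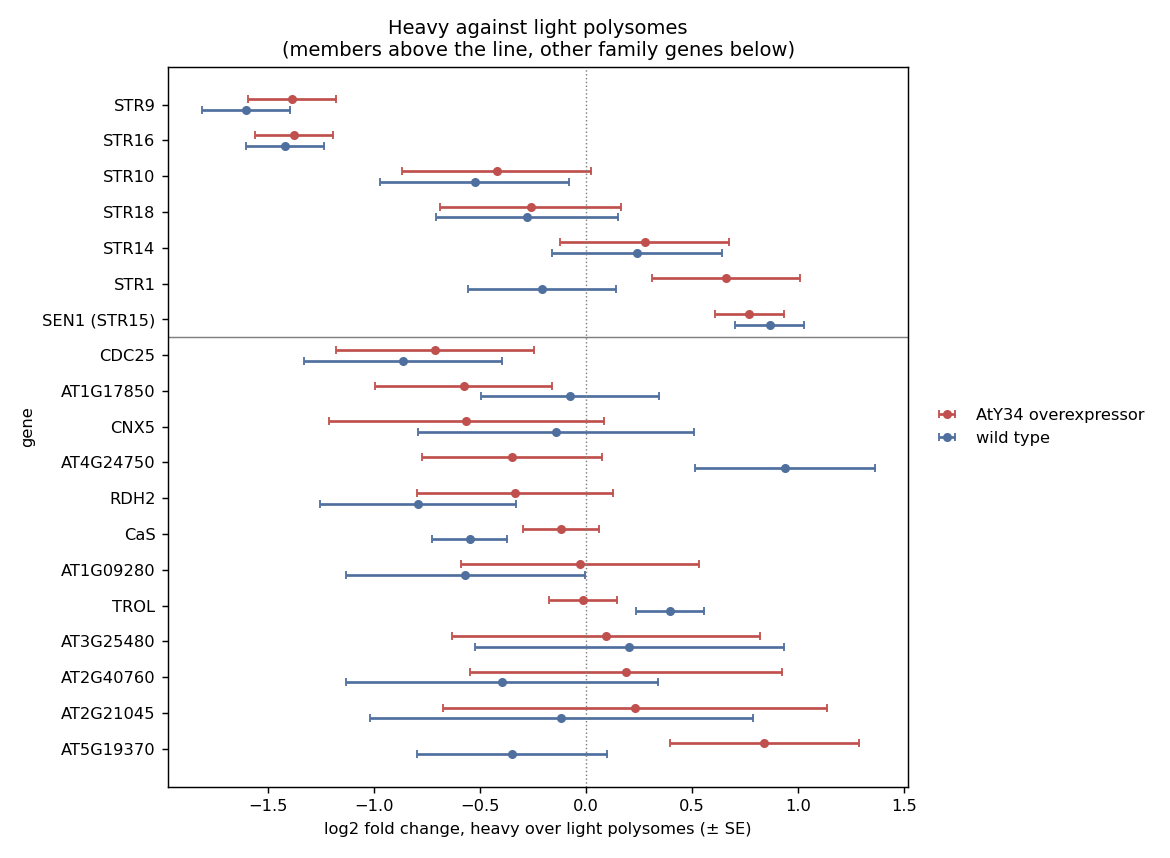
Log2 fold change of heavy over light polysomes (points, with SE as bars) in the AtY34 overexpressor (upper point of each pair) and wild type (lower point), for the 7 tested members above the line and 12 other family genes below it. STR9 and STR16 lie between -1.37 and -1.60 in both lines, and SEN1 at 0.77 in the AtY34 line and 0.87 in wild type. The other family genes run from -0.71 to 0.84 in the AtY34 line and from -0.86 to 0.94 in wild type. SEN1 lies within that range in both lines.

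Because SEN1 and STR16 go opposite ways, their ratio within a library, which no scaling between libraries touches, separated the fractions. In the AtY34 line SEN1 TPM was 4.68, 3.37 and 3.98 times STR16 TPM in heavy polysomes and 1.12, 0.792 and 0.809 times in light polysomes. AtY34 total RNA lay between, at 1.43, 2.03 and 1.69. The wild-type ratios were 4.49, 4.36 and 6.27 in heavy polysomes, 0.976, 1.16 and 0.926 in light polysomes and 1.67, 1.88 and 1.65 in total RNA. The 3 fractions did not overlap in this ratio in either line. The ratio uses genes already seen to go opposite ways, so it describes those differences and is no separate test. In wild type it includes the STR16 heavy values through which the family was chosen. STR9 was 0.481 ± 0.0982 times STR16 in AtY34 heavy polysomes, 0.483 ± 0.0762 times in AtY34 light polysomes and 0.410 ± 0.106 times in AtY34 total RNA (SD, n = 3 each), with overlap between all fractions. In wild type the 3 heavy libraries spread from 0.272 to 0.653, around light polysomes at 0.451 to 0.494 and total RNA at 0.314 to 0.379. Wild-type light polysomes and total RNA did not overlap in that ratio.

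**Figure D3:**
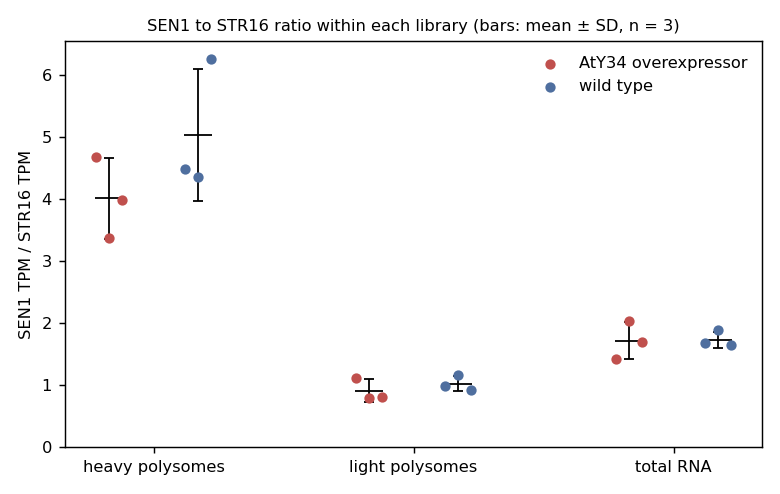
Ratio of SEN1 TPM to STR16 TPM within each library (linear axis from 0) by fraction, with the AtY34 overexpressor left of wild type; points are libraries and bars are mean ± SD, n = 3. Heavy polysomes sit between 3.37 and 6.27 in both lines, light polysomes between 0.792 and 1.16, and total RNA between 1.43 and 2.03.

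The summed level of all members moved less than its makeup. It was 1244 ± 78.7 scaled TPM in AtY34 heavy polysomes and 1398 ± 108 in AtY34 light polysomes. SEN1 made up 64.8% ± 2.61 of that sum in AtY34 heavy polysomes and 34.03% ± 5.28 in AtY34 light polysomes. The share of STR16 was 16.4% ± 2.05 in AtY34 heavy and 37.8% ± 2.26 in AtY34 light polysomes. In wild type SEN1 held 70.1% ± 2.53 in heavy and 36.6% ± 2.05 in light polysomes (SD, n = 3 each).

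The 4 less abundant members gave no call between heavy and light polysomes of the AtY34 line. STR1, the mitochondrial mercaptopyruvate sulfurtransferase with tandem rhodanese domains, had 26.6, 36.6 and 50.8 scaled TPM in AtY34 heavy polysomes and 14.7, 24.7 and 32.5 in AtY34 light polysomes. Its libraries overlapped as groups, but each heavy library was above the light library of the same number. Libraries were not treated as paired. The STR1 log2 fold change was 0.66 (SE 0.35, limma adjusted p = 0.484), or 0.36 without light replicate 1 and 0.44 without heavy replicate 3. In wild type STR1 had 34.5, 34.4 and 14.1 scaled TPM in heavy polysomes against 29.6, 29.5 and 30.2 in light polysomes, a log2 fold change of -0.21 (SE 0.35). The value turned to 0.20 without wild-type heavy replicate 3.

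STR10, STR14 and STR18 are single-domain proteins. STR10 averaged 33.98 ± 9.89 scaled TPM in AtY34 heavy and 45.5 ± 12.7 in AtY34 light polysomes (log2 fold change -0.42, SE 0.45). STR14 averaged 39.2 ± 5.12 and 34.5 ± 14.8 (log2 fold change 0.28, SE 0.40), and its sign turned to -0.13 without light replicate 1. STR18 averaged 26.5 ± 2.18 in AtY34 heavy and 37.0 ± 25.2 in AtY34 light polysomes (log2 fold change -0.26, SE 0.43), and its sign turned to 0.25 without light replicate 2. The intervals at 95% for these 3 differences all contained 0 and reached at least 0.52 above and 0.56 below it. In wild type the log2 fold changes were -0.52 (SE 0.45) for STR10, 0.24 (SE 0.40) for STR14 and -0.28 (SE 0.43) for STR18. That of STR14 turned to -0.20 without light replicate 3. Wild-type STR10 libraries narrowly did not overlap, with at most 49.99 scaled TPM in heavy and at least 50.08 in light polysomes. Over the 7 tested members the median log2 fold change between heavy and light polysomes was -0.26 in the AtY34 line, beside -0.04 over all genes tested, and -0.28 in wild type, beside -0.06.

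Each polysome fraction was also set against total RNA; these comparisons share libraries with the ones above. No member was called between heavy polysomes and total RNA of the AtY34 line (0.0644% of genes called), with 2 members and 8.9% of all genes at an unadjusted p under 0.05. STR16 had 168, 244 and 203 scaled TPM in AtY34 heavy polysomes and 418, 367 and 350 in AtY34 total RNA, without overlap (log2 fold change -0.89, SE 0.18, limma adjusted p = 0.0862). Without heavy replicate 2 that adjusted p was 0.0425. STR9 differed by -0.65 (SE 0.21, limma adjusted p = 0.343) and SEN1 by 0.33 (SE 0.16, limma adjusted p = 0.579). Between wild-type heavy polysomes and total RNA, where nothing is read from the count either, 1 member lay past the cutoff, as did 0.129% of all genes. There the log2 fold changes were -1.15 (SE 0.18) for STR16, -0.90 (SE 0.21) for STR9 and 0.36 (SE 0.16) for SEN1. The STR16 value was -0.53 with TPM as deposited, where the 1 member past the cutoff was SEN1 (0.99), among 789 genes (26 otherwise). Without wild-type heavy replicate 3 the STR16 value was -1.08, and the 1 member past the cutoff was STR9 (-1.15). In TPM as deposited, the median over all genes was 0.52 higher on the log2 scale in heavy polysomes than in total RNA of both lines, and these values are relative to that shift. CAB1, a leaf gene, was also past the threshold there, at 4619 ± 737 scaled TPM in wild-type heavy polysomes and 9363 ± 410 in wild-type total RNA. Its part in the members' values was not tested.

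Between light polysomes and total RNA of the AtY34 line no member was called either (0.109% of genes called), with 4 members and 8.39% of all genes at an unadjusted p under 0.05. The log2 fold changes were 0.73 (SE 0.21, limma adjusted p = 0.295) for STR9, 0.48 (SE 0.18, adjusted p = 0.479) for STR16 and -0.44 (SE 0.16, adjusted p = 0.456) for SEN1. With TPM as deposited, STR9 passed at 1.21 and the value of SEN1 turned to 0.040. The median of all genes was then 0.44. Over all alternatives at most 66 genes passed in this comparison (22 otherwise). STR10 had 44.5, 33.4 and 58.7 scaled TPM in AtY34 light polysomes and 32.0, 33.5 and 6.67 in AtY34 total RNA (log2 fold change 1.14, SE 0.45, limma adjusted p = 0.493). Without total replicate 3 the value was 0.43. In wild type 0 members lay past the cutoff between light polysomes and total RNA, where 0.104% of genes did, and nothing is read from that count; 2 members and 9.39% of all genes had an unadjusted p under 0.05. STR9 stood at 0.70 (SE 0.21), STR16 at 0.26 (SE 0.18) and SEN1 at -0.50 (SE 0.16) in that wild-type comparison.

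The AtY34 line was then compared with wild type within each fraction; in such extracts, fewer cells of a type and less RNA per cell cannot be told apart. No member was called in heavy polysomes (0.0198% of genes called), in light polysomes (0.0347%) or in total RNA (0.0793%). The heavy comparison includes the wild-type values through which the family was chosen. The members' values in it are therefore a description, and nothing is read from their count. At an unadjusted p under 0.05 there were 1, 0 and 2 members in these fractions, beside 4.47%, 4.59% and 8.13% of all genes. The root marker IRT1 averaged 24.1 ± 0.306 scaled TPM in AtY34 heavy polysomes and 11.3 ± 3.64 in wild-type heavy polysomes; none of the 3 tested root markers was called, and their part in the members' values was not tested. SEN1 was lower in every AtY34 library than in any wild-type library in heavy polysomes, at 784 to 822 against 838 to 1193 scaled TPM. The log2 fold change was -0.39 (SE 0.16, 95% interval -0.73 to -0.05, limma adjusted p = 1). In light polysomes SEN1 was also without overlap, at 408 to 520 scaled TPM in the AtY34 line and 558 to 603 in wild type (-0.29, 95% interval -0.63 to 0.05, adjusted p = 1). In total RNA the SEN1 libraries of the lines overlapped (-0.35, 95% interval -0.70 to -0.01, adjusted p = 0.600).

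STR16 and STR9 overlapped between the lines in all 3 fractions. The log2 fold changes of STR16 in the AtY34 line against wild type were -0.07 in heavy polysomes (95% interval -0.46 to 0.32), -0.11 in light polysomes (-0.50 to 0.28) and -0.33 in total RNA (-0.72 to 0.06). Those of STR9 were 0.13 (-0.31 to 0.57), -0.09 (-0.52 to 0.35) and -0.12 (-0.55 to 0.32). STR10 was lower in AtY34 total RNA, with 32.0, 33.5 and 6.67 scaled TPM against 53.2, 57.7 and 38.4 in wild type, but did not pass (log2 fold change -1.28, SE 0.45, limma adjusted p = 0.460). Without AtY34 total replicate 3 the value was -0.57.

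The difference between heavy and light polysomes was compared between the lines as an interaction. The interaction includes the wild-type heavy values through which the family was chosen, so the members' values in it are a description. No gene passed, among the members or over all 20171 genes (0% called; 0 members and 691 genes, 3.43%, at an unadjusted p under 0.05, limma). The interaction was 0.04 for STR16 (SE 0.26, 95% interval -0.51 to 0.59), 0.22 for STR9 (SE 0.29, -0.40 to 0.84) and -0.10 for SEN1 (SE 0.23, -0.58 to 0.39). STR1 had the widest gap between the lines among the members, 0.87 (SE 0.49, 95% interval -0.17 to 1.91, adjusted p = 1). It was 0.46 without wild-type heavy replicate 3 and 0.57 without AtY34 light replicate 1.

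The deposited transcript table shows which transcript carries each value. The first listed transcript of STR16, 1 of 2 in the table, made up 98.2% to 99.3% of the gene's TPM in the 6 group means. For SEN1 the first of 3 transcripts made up 91.7% to 95.2%, and the share was 95.2% ± 0.913 in AtY34 heavy polysomes and 91.9% ± 3.85 in AtY34 light polysomes (SD, n = 3 each). STR1 had all its TPM in the first of 3 transcripts and STR18 in the third of 3. STR9, STR10, STR14 and STR17 have 1 transcript each in the table.

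STR16 and STR18 lie on chromosome 5 with 15 protein-coding genes between them in the reference (TAIR10.1). In that reference 5 of the 8 loci overlap a neighbour, by 9 to 90 bp. The libraries were made strand-specific, per the labels, but no source used here says whether quantification made use of strand. STR9 has the longest overlap, 6.15% of its span, with AT2G42230. That neighbour had 8.80 ± 3.21 scaled TPM in AtY34 heavy and 5.85 ± 2.50 in AtY34 light polysomes. STR16 overlaps ATGRIP by 12 bp, 1.19% of its span; ATGRIP averaged 27.4 ± 2.54 scaled TPM in AtY34 heavy and 26.5 ± 9.28 in AtY34 light polysomes.

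The members were then set beside genes of like span, introns included, among protein-coding genes averaging 20 scaled TPM or more. STR16 spans 1012 bp, STR9 1463 bp and SEN1 1389 bp, all in the class of 1000 to below 1500 bp with STR10 (1090 bp) and STR18 (1135 bp). The 732 genes of that class had a median log2 fold change between heavy and light polysomes of -0.22 in the AtY34 line (quartiles -0.72 and 0.20) and -0.23 in wild type. STR16 and STR9 lay below the lower quartile of their class in the AtY34 line and SEN1 above the upper one. Over all classes the AtY34 median ran from -0.44 below 1000 bp to 0.29 at 5000 bp and over. The part of span in the members' values was not tested.

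**Figure D4:**
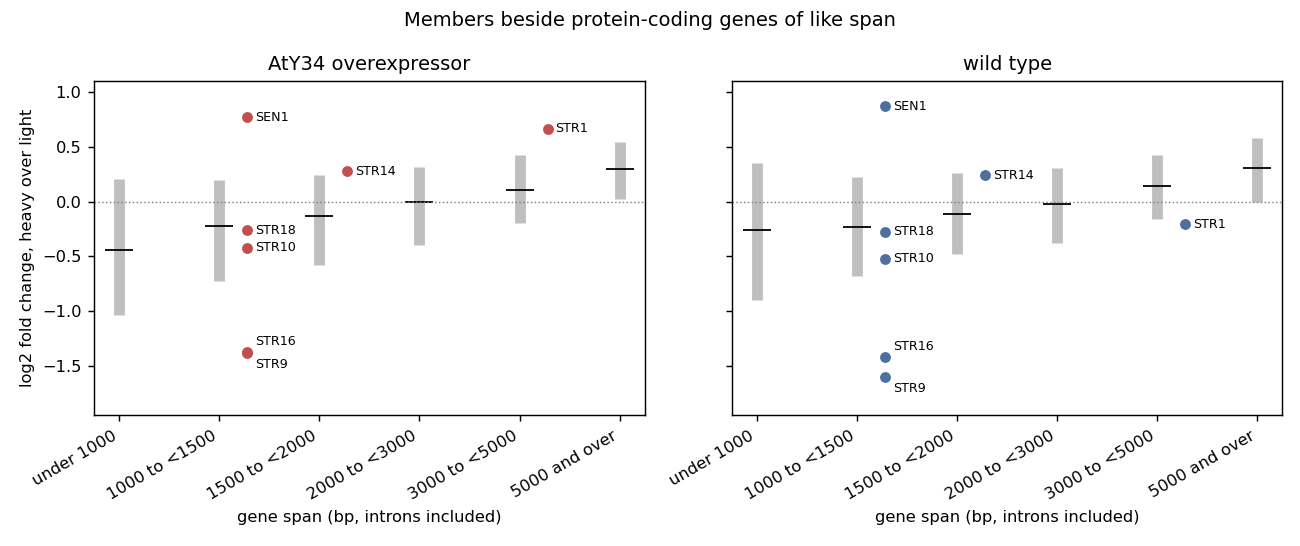
Log2 fold change of heavy over light polysomes for 7 members (points) beside the median (line) and quartiles (grey bar) of abundant protein-coding genes in 6 classes of gene span, in the AtY34 overexpressor (left) and wild type (right). Within the class of 1000 to below 1500 bp, SEN1 lies above the upper quartile and STR16 and STR9 below the lower quartile in both panels.

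The 12 other family loci were all tested and none was called in any of the 10 comparisons. Between heavy and light polysomes of the AtY34 line 4 had a positive and 8 a negative log2 fold change, with a median of -0.07; 0 had an unadjusted p under 0.05, beside 11.9% of all genes. TROL (STR4), which tethers ferredoxin-NADP reductase at the thylakoid, averaged 125 ± 9.44 scaled TPM in AtY34 heavy and 126 ± 19.4 in AtY34 light polysomes. In wild type TROL averaged 153 ± 17.4 in heavy and 115 ± 5.38 in light polysomes. CaS (STR3), a calcium-sensing thylakoid protein, averaged 93.4 ± 5.69 scaled TPM in AtY34 heavy and 102 ± 11.1 in AtY34 light polysomes. RDH2 (STR2), the cytosolic relative of STR1, averaged 17.3 ± 1.68 scaled TPM in AtY34 heavy and 22.2 ± 3.76 in AtY34 light polysomes (SD, n = 3 each). In wild type CaS had 69.4 to 91.8 scaled TPM in heavy and 113 to 124 in light polysomes, and RDH2 had 11.3 to 18.5 in heavy and 24.8 to 29.4 in light polysomes. Neither overlapped there, nor did TROL, and none passed. Of the 12 loci, 2 lay above and 3 below without overlap in wild-type heavy against light polysomes. How many of all genes do so was not counted, so nothing is read from these counts. In that wild-type comparison 3 of the 12 loci and 11.7% of all genes had an unadjusted p under 0.05.

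Gene lists around the family's chemistry gave no call in any comparison: 18 genes of sulfate assimilation and of cysteine and glutathione synthesis, 12 tested genes of 13 for other sulfur transfer (cysteine desulfurases, molybdenum cofactor and persulfide metabolism) and 11 tested genes of 12 induced in darkness or senescence. Between heavy and light polysomes of the AtY34 line, 3, 1 and 3 of them had an unadjusted p under 0.05, as did 11.9% of all genes, and their medians were 0.0038, 0.07 and -0.30. In the last list 5 of 11 had a positive and 6 a negative value. ASN1 (DIN6), an asparagine synthetase, averaged 226 ± 24.2 scaled TPM in AtY34 heavy and 134 ± 10.6 in AtY34 light polysomes. It did not overlap between them but did not pass (log2 fold change 0.74, SE 0.18, limma adjusted p = 0.0640). DIN10 averaged 216 ± 14.3 scaled TPM in AtY34 heavy and 164 ± 9.18 in AtY34 light polysomes (log2 fold change 0.40, limma adjusted p = 0.259). On the negative side, SAG21 averaged 88.5 ± 11.8 scaled TPM in AtY34 heavy and 126 ± 30.4 in AtY34 light polysomes, and DIN4 averaged 13.0 ± 5.95 in heavy and 18.5 ± 1.58 in light polysomes.

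As a description, the 4369 other nuclear genes averaging 20 scaled TPM or more were ranked by likeness of pattern over the 18 libraries, which share the same 6 groups. The closest to STR16 were AT1G56045 (Pearson r = 0.925), the ubiquitin-conjugating enzyme UBC1 (0.904), AT1G15120 (0.903), AT1G51200 (0.902) and the vacuolar SNARE VAMP711 (0.901). The closest to SEN1 were the histone H2B gene HTB11 (0.921), the quinone reductase FQR1 (0.886), the plastid ribosomal protein gene RPL12-A (0.885), AT1G06760 (0.880) and the enolase LOS2 (0.879). STR18 had no gene as close, with NADP-ME4 first at 0.703, then AT5G09830 (0.686), AT2G36170 (0.676), AT5G51110 (0.660) and the plastid cysteine synthase OASB (0.657). Between members, r was 0.87 for STR9 and STR16, -0.79 for STR9 and SEN1 and -0.66 for SEN1 and STR16.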

How the data were processed

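The authors deposited TPM per gene and per transcript; FastQC, MultiQC, STAR and the TAIR10 build are named in the submitters' processing notes, with no tool versions. The deposited TPM also carry the name of the quantifier Salmon. Its settings and other quantification steps are not given in the sources used here. TPM keep no read number, so no count model was used. Only columns whose names match a single label were used; 18 further sample columns per gene and 54 per transcript were left out. TPM were divided by a median-of-ratios factor and 20171 of 32801 nuclear genes were tested with limma 3.58.1 (R 4.3.3, mean-dependent prior, 6 group means, 12 residual degrees of freedom, pseudocount 1, two-sided, Benjamini-Hochberg within each of 10 comparisons). The procedure was tested on simulated data. The members and gene lists were chosen with earlier results of these data known. The text names all 8 members, any list gene past the threshold (CAB1, lower in wild-type heavy polysomes than in total RNA, was the only one), and the 5 genes most like STR16, SEN1 and STR18; other names, STR9's partners included, were chosen after their values were seen. A planned comparison with protein length was not made; gene span from a TAIR10.1 gene table replaced it. Alternatives were TPM as deposited, quantile normalization, pseudocount 0.1, no filter, only the libraries compared, a replicate block and leaving out each library. No sequence is printed.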

Additional observations from a re-analysis of the deposited data

How the results depend on the processing

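With only the libraries compared in the model, 0 members passed between heavy and light polysomes in the AtY34 line (3 otherwise) and in wild type (3 otherwise). Over all genes, 0 passed in the AtY34 line (139 otherwise) and 0 in wild type (193 otherwise). Between wild-type heavy polysomes and total RNA, 0 members (1 otherwise, STR16) and 2 genes (26 otherwise) passed. With quantile normalization 0 members and 15 genes passed there. The model with only the libraries compared leaves 4 residual degrees of freedom in place of 12. With TPM as deposited, 1 member passed between AtY34 heavy polysomes and total RNA (SEN1, 0.96, limma adjusted p = 0.0134), where 714 genes did (13 otherwise). In wild-type heavy polysomes against total RNA the 1 member was then SEN1 (0.99), not STR16 (-0.53), among 789 genes (26 otherwise). Against total RNA, 1 member also passed in AtY34 light polysomes (STR9, 1.21, limma adjusted p = 0.0355) and in wild-type light polysomes (STR9). All genes past the threshold were then 64 in wild-type light polysomes (21 otherwise). In AtY34 light polysomes they were at most 66 over all alternatives (22 otherwise). SEN1 in AtY34 light polysomes against total RNA turned to 0.040. Nothing is read from these member counts. Leaving out 1 library gave 2 members between AtY34 heavy and light polysomes in every case, 2 to 3 in wild type, 0 to 1 between AtY34 heavy polysomes and total RNA (1 without heavy replicate 2) and 0 to 1 in wild type (0 without total replicate 1 or 3, and STR9 in place of STR16 without heavy replicate 3). Leaving out 1 library turned the sign of values near 0: STR14 (-0.13 to 0.52) and STR18 (-0.68 to 0.25) between AtY34 heavy and light polysomes, STR1 (-0.41 to 0.20) and STR14 (-0.20 to 0.59) between wild-type heavy and light polysomes, STR9 (-0.020 to 0.38) and STR16 (-0.20 to 0.082) between the lines in heavy polysomes, STR9 (-0.26 to 0.0096) between the lines in total RNA, and the interaction of STR16 (-0.089 to 0.19). The SEN1 call in the AtY34 line also ended with quantile normalization (adjusted p = 0.0977) and with only the libraries compared (0.185). Over all genes, leaving out 1 library gave 48 to 144 calls between AtY34 heavy and light polysomes (139 otherwise; 48 without light replicate 1 and 66 to 78 without heavy replicate 1 or 3 or light replicate 2 or 3) and 67 to 124 in wild type (193 otherwise, fewer without each library); the cause was not tested. The deviations of same-numbered libraries correlated with r from -0.17 to 0.198, not above 0.1 in every pair, so they were not treated as paired. In wild-type heavy against light polysomes (0.0576 to 0.116) and AtY34 light polysomes against total RNA (0.0407 to 0.0668) every such r was above those of different numbers (at most 0.0279 and -0.0081). This is a hint of pairing from the data. The column names give same-numbered libraries of a line a shared stem, which does not state whether they come from the same extract. With the replicate block no member call changed (AtY34 heavy against light, limma, STR16 adjusted p = 0.00389, STR9 0.00478, SEN1 0.0382). The block gave each replicate number an effect shared by both lines, so it does not test pairing within a line. Depth is unknown and limits what can be said of members near 30 scaled TPM.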

Other observations

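STR9 lay outside the genes for which partners were to be listed, and its closest patterns were looked up after its values were seen. Over the 18 libraries they were AT1G10682, a non-coding RNA gene in the reference (Pearson r = 0.951), the metallothionein gene MT1C (0.945), AT5G59613 (0.928), AT1G07590 (0.926) and AT5G11500 (0.924). Of the remaining family, CDC25, also described as an arsenate reductase, averaged 21.6 ± 12.1 scaled TPM in AtY34 heavy and 32.5 ± 12.3 in AtY34 light polysomes. In wild type CDC25 averaged 28.4 ± 17.9 in heavy and 48.3 ± 15.9 in light polysomes. CNX5, which activates molybdopterin synthase, averaged 2.83 ± 1.25 scaled TPM in AtY34 heavy and 4.91 ± 2.53 in AtY34 light polysomes (SD, n = 3 each).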
